A study of Rattus norvegicus with 4 samples.

Results

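The genes of the platelet-derived growth factor (PDGF) family were followed across 4 RNA-seq libraries of cultured rat microvessels. They are the ligand genes Pdgfa, Pdgfb, Pdgfc and Pdgfd, the receptor genes Pdgfra and Pdgfrb, and the receptor-like gene Pdgfrl. They were taken by symbol, and all 7 were among the 23608 gene entries of the count table. The cells were wild-type primary vascular cells from subcutaneous soft connective tissue of the rat. The groups were stiff extracellular matrix with A83-01, stiff matrix without it, soft matrix with A83-01 and soft matrix without it, with 1 library each. A83-01 is a compound that blocks the kinases of the TGF-beta type I receptors. The stated purpose was to see how matrix stiffness and this inhibitor act on microvessels and on the turning of pericytes into myofibroblasts. The labels give no stiffness value, dose, duration, age or sex, and do not say whether the libraries came from separate animals or cultures.

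PDGF ligands are secreted dimers that bind receptor tyrosine kinases on mesenchymal cells. Endothelial cells of growing vessels release PDGF-B, which draws in pericytes carrying PDGFR-beta and keeps them on the vessel. PDGF-A and PDGF-C act mainly through PDGFR-alpha, which is common on fibroblasts and their progenitors. PDGF-C and PDGF-D are made as latent proteins with a CUB domain that proteases such as tissue plasminogen activator and urokinase remove. Pdgfrl encodes a protein that resembles the extracellular part of the receptors and has no kinase domain.

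Each group is 1 library, so differences within a pair of libraries cannot be checked in replicates. The p-values of the model below rest on the spread between these 4 libraries, with dispersion shared across genes, and measure no replicate spread. Total counts lay between 32271844 and 33416200. TMM factors were 1.07 in stiff with A83-01, 0.876 in stiff, 1.04 in soft with A83-01 and 1.03 in soft, and the stiff library gave 6.09% of its counts to Col1a1. Scaling by total counts alone shifted the all-gene median log2 ratio by −0.23 in stiff against soft and by 0.28 in stiff with A83-01 against stiff, so changes are given relative to TMM scaling. The labels name both stiff libraries in another form than both soft ones, so an effect of matrix and one of a separate preparation, if there was one, cannot be told apart. Intervals in parentheses after a fold are 95% counting intervals and cover counting error only. A pair was called at 2-fold or more with an interval that excluded equality. Counts at an unadjusted p of at most 0.05 are given without the share of all genes at that threshold. They cannot be read as more or less than the background.

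Pdgfrb was the most abundant member in every library on the FPKM scale, the authors' count per transcript length and library total. It encodes PDGFR-beta, the receptor of pericytes and other mural cells. Pdgfrb stood at 257 FPKM in stiff with A83-01, 226 FPKM in stiff, 151 FPKM in soft with A83-01 and 213 FPKM in soft. No more than 1.66% of gene entries in any library had a higher FPKM. Pdgfra, the gene of PDGFR-alpha, stood at 32.0 FPKM in stiff with A83-01, 21.3 FPKM in stiff, 118 FPKM in soft with A83-01 and 134 FPKM in soft. Both receptor genes were thus closest in level in the soft libraries. Among the ligand genes, Pdgfb led with 64.8 FPKM in stiff with A83-01, 55.8 FPKM in stiff, 62.3 FPKM in soft with A83-01 and 81.0 FPKM in soft. Pdgfa followed with 35.2 FPKM in stiff with A83-01, 31.0 FPKM in stiff, 18.9 FPKM in soft with A83-01 and 27.9 FPKM in soft. The CUB-domain ligand genes were lower than both in every library. Pdgfd stood at 3.84 FPKM in stiff with A83-01, 4.06 FPKM in stiff, 5.59 FPKM in soft with A83-01 and 6.07 FPKM in soft. Pdgfc was the lowest member throughout, at 1.65 FPKM in stiff with A83-01, 2.18 FPKM in stiff, 1.62 FPKM in soft with A83-01 and 1.64 FPKM in soft. Pdgfrl lay between Pdgfa and Pdgfd in every library, with 18.1 FPKM in stiff with A83-01, 30.2 FPKM in stiff, 6.06 FPKM in soft with A83-01 and 12.6 FPKM in soft. Counting error did not separate Pdgfb between both A83-01 libraries, Pdgfd between both soft libraries, or Pdgfc among the 3 libraries below stiff, when each gene's normalised levels were put in order.

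**Figure D1:**
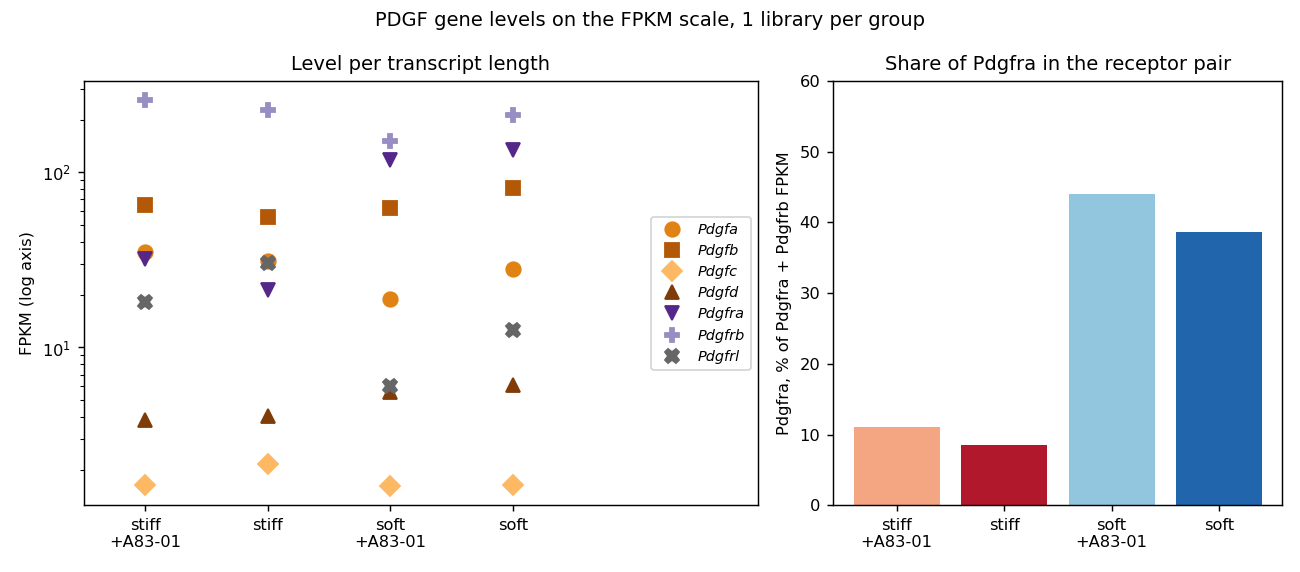
Left, FPKM on a log axis for each PDGF gene (symbols) in each library, 1 library per group. Right, the share of Pdgfra in the summed FPKM of Pdgfra and Pdgfrb, which was 11.05% in stiff with A83-01 and 8.61% in stiff, against 44.0% in soft with A83-01 and 38.7% in soft.

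Of the 7 genes, 2 changed with stiffness: Pdgfra fell and Pdgfrl rose. The test ran over all 4 libraries with the inhibitor in the model, by edgeR's quasi-likelihood test after Benjamini-Hochberg adjustment. It called 5.64% of all genes, with 2.35% higher and 3.29% lower on stiff matrix. In this additive model the only residual is the difference of the inhibitor response between matrices. Without replicates, such a difference cannot be told apart from spread between libraries. Counted by library pair, 2 of 7 genes were called in stiff against soft, against 13.9% of all genes, and 2 of 7 with A83-01 in both, against 13.6%. The same 2 genes, Pdgfra and Pdgfrl, were called in the same direction in both pairs, which share no library, against 7.19% of all genes. Without the inhibitor in the model the test called 0 of 7 and gave 2 at an unadjusted p of at most 0.05, with an adjusted p of 0.063 for Pdgfra and 0.245 for Pdgfrl by edgeR's quasi-likelihood test.

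**Figure D2:**
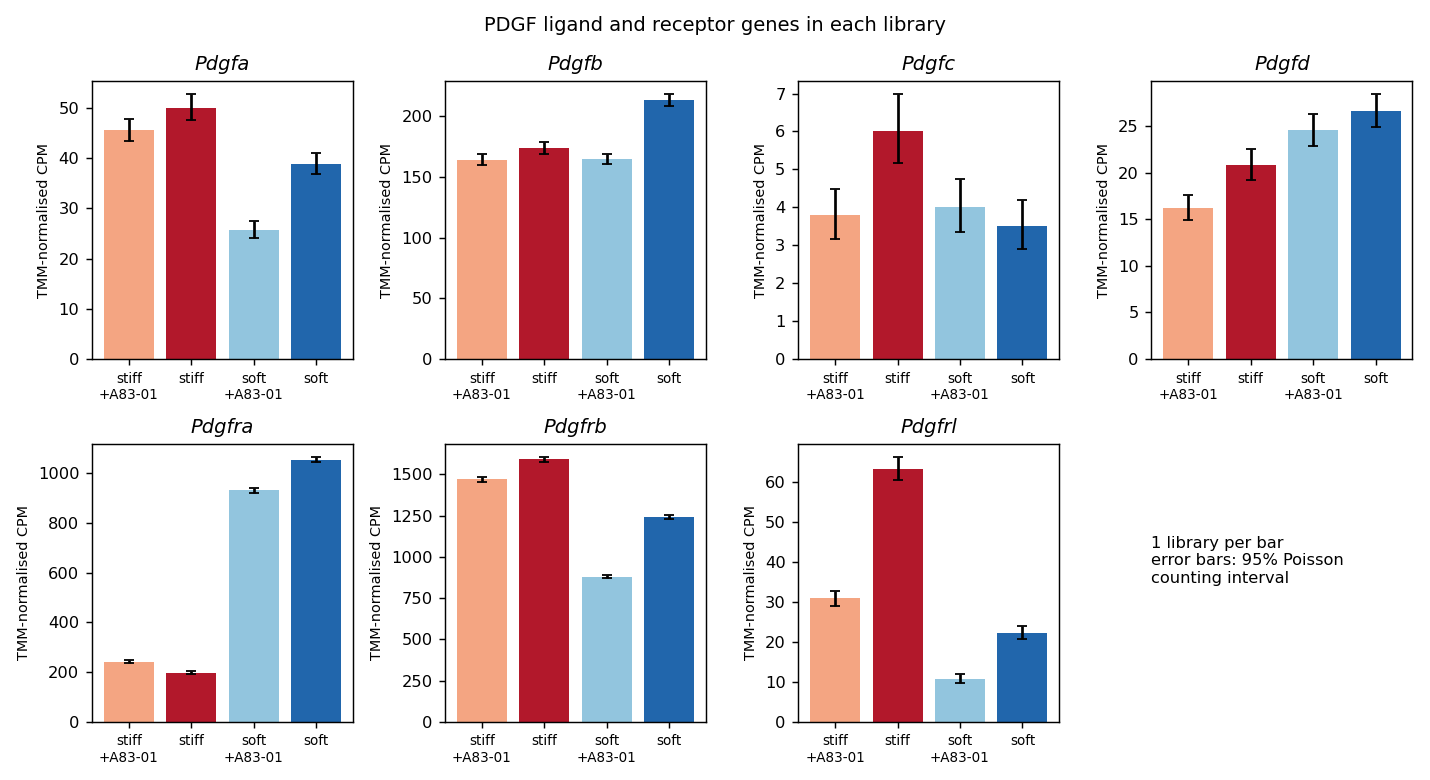
TMM-normalised expression (CPM, counts scaled to library size) of each PDGF gene in stiff with A83-01, stiff, soft with A83-01 and soft, 1 library per bar, with 95% Poisson counting intervals. Pdgfra is at 241 and 198 CPM in the stiff libraries and at 931 and 1054 CPM in the soft ones, while Pdgfrl is highest in stiff at 63.2 CPM.

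Pdgfra stood at 241 CPM in stiff with A83-01 and 198 CPM in stiff, against 931 CPM in soft with A83-01 and 1054 CPM in soft. Both stiff libraries lay below both soft libraries. Pdgfra fell by 2.18 on the log2 scale with stiffness (SE 0.216, adjusted p = 0.0159, edgeR's quasi-likelihood test, lower in both pairs). It was 5.32-fold lower (5.18 to 5.48) in stiff than in soft and 3.85-fold lower (3.76 to 3.95) with A83-01 in both. Only 1.95% of the genes kept had a lower stiffness difference. In bulk RNA, fewer cells of a type and less RNA per cell cannot be told apart.

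The promoter window of Pdgfra is shown because Pdgfra carried the largest stiffness difference of the family, beside that of Pdgfb, the ligand of nearly level expression. Each window runs from 250 bases before to 50 bases after the RefSeq start on GRCr8 and is written along the gene's strand. Pdgfra lies at chr14:33408467-33408766 on the minus strand and Pdgfb at chr7:113438294-113438593 on the minus strand. Capitals mark matches on either strand to 6 motifs. Among them are CAGAC of SMAD sites, GGAATG of TEAD sites, the CArG box of serum response factor, TATAAA and GGGCGG of SP1. The other is TGANTCA, a loose pattern for AP-1 in which N is any base.
Pdgfra: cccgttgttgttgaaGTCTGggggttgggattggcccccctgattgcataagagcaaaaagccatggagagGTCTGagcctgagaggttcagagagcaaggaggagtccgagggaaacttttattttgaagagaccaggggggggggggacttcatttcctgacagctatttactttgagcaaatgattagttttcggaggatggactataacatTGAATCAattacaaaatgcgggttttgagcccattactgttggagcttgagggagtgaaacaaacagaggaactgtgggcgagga
Pdgfb: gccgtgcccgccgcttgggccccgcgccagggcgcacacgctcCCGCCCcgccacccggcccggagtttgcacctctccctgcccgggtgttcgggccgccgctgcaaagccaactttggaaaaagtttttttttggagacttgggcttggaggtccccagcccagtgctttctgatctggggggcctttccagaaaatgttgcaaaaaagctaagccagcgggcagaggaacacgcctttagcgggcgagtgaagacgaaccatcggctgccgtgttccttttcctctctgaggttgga
The Pdgfra window held 2 matches to CAGAC, both on the reverse strand, and 1 to TGANTCA, which reads TGAATCA. Of 33469 promoter windows of this length, 50.1% hold CAGAC and 7.33% hold TGANTCA. The Pdgfb window held 1 match, to GGGCGG on the reverse strand, a motif found in 33.1% of windows. GC content was 48.0% in the Pdgfra window and 62.0% in the Pdgfb window, against a median of 51.7% over all windows. These matches are descriptions of letters and not binding sites. The windows of Pdgfa, Pdgfc and Pdgfd were read in the same way. The Pdgfd window held 1 CAGAC and 1 GGGCGG, that of Pdgfa held 1 GGGCGG, and that of Pdgfc held none of the 6 motifs. In the Pdgfc window the stated start falls on the bases atg. It may thus be a start of translation, and that window cannot be taken as a promoter.

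Pdgfrl moved the other way. It stood at 30.8 CPM in stiff with A83-01 and 63.2 CPM in stiff, against 10.7 CPM in soft with A83-01 and 22.2 CPM in soft. Both stiff libraries lay above both soft libraries. Pdgfrl rose by 1.51 on the log2 scale with stiffness (SE 0.139, adjusted p = 0.0148, edgeR's quasi-likelihood test, higher in both pairs). The fold was 2.85 (2.61 to 3.10) in stiff against soft and 2.87 (2.54 to 3.24) with A83-01 in both. Among the genes kept, 97.4% had a lower stiffness difference.

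Pdgfrb did not pass the test. It stood at 1469.5 CPM in stiff with A83-01 and 1591 CPM in stiff, against 881 CPM in soft with A83-01 and 1239 CPM in soft. Both stiff libraries were again above both soft ones. The log2 difference was 0.55 (SE 0.223, adjusted p = 0.215, edgeR's quasi-likelihood test, higher in both pairs). The fold was 1.28 (1.27 to 1.30) in stiff against soft and 1.67 (1.65 to 1.69) with A83-01 in both. The receptor genes therefore stood in different proportion on each matrix. Per transcript length, Pdgfra amounted to 0.124 of Pdgfrb in stiff with A83-01 and 0.0942 in stiff, against 0.785 in soft with A83-01 and 0.631 in soft. This ratio is taken within a library and does not depend on scaling between libraries. The ratio was higher with A83-01 than without it on both matrices, and no test of it was made.

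**Figure D3:**
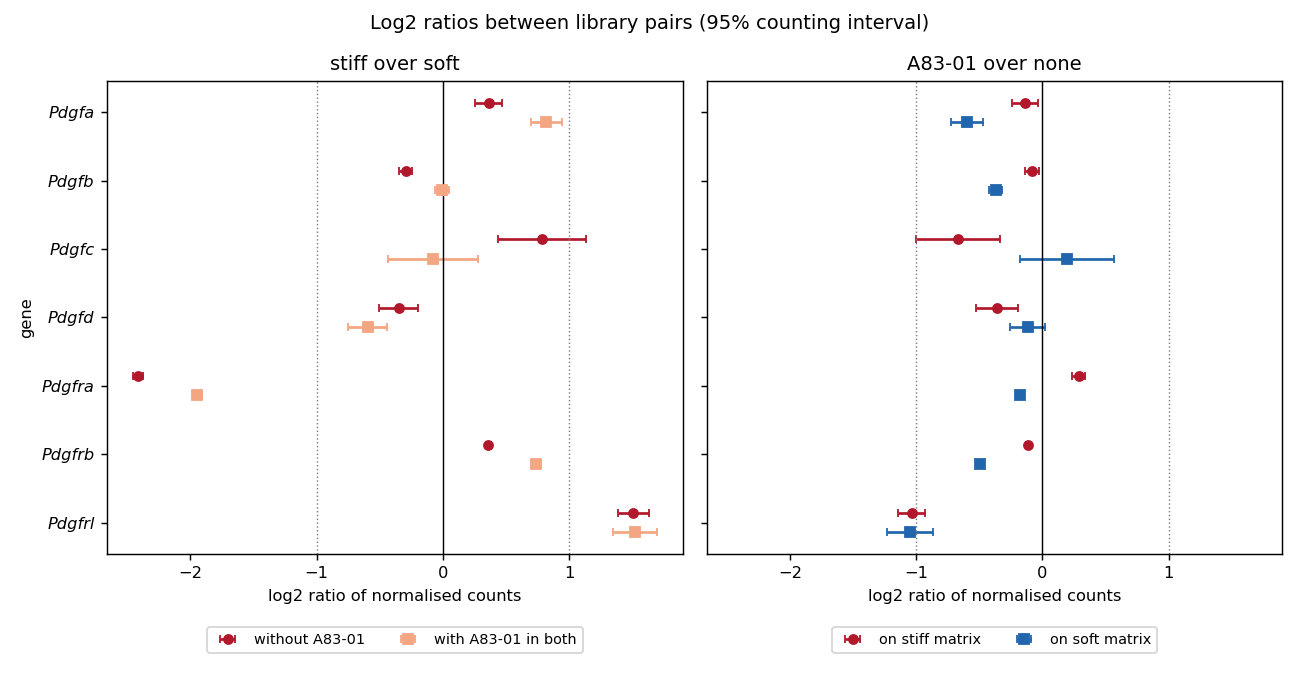
Log2 ratios of normalised counts for each PDGF gene with 95% counting intervals, for stiff over soft (left, without and with A83-01) and for A83-01 over none (right, on stiff and on soft matrix). Dotted lines mark 2-fold; Pdgfra and Pdgfrl pass them on the left and Pdgfrl on the right, where with total-count scaling Pdgfa, Pdgfb and Pdgfrb lie above 0 on stiff matrix and Pdgfrl is within 2-fold there.

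None of the ligand genes passed the stiffness test or differed 2-fold in any pair. Pdgfa, whose product is a ligand of PDGFR-alpha made by many cell types, stood at 45.5 CPM in stiff with A83-01 and 50.1 CPM in stiff, against 25.8 CPM in soft with A83-01 and 38.9 CPM in soft. Both stiff libraries lay above both soft ones. Its log2 difference was 0.59 (SE 0.168, adjusted p = 0.12, edgeR's quasi-likelihood test). The fold was 1.29 (1.19 to 1.39) in stiff against soft and 1.77 (1.63 to 1.92) with A83-01 in both.

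Pdgfb, the endothelial ligand of PDGFR-beta, stood at 164 CPM in stiff with A83-01 and 174 CPM in stiff, against 165 CPM in soft with A83-01 and 213 CPM in soft. The soft library was highest and stiff next, while both A83-01 libraries were lowest and not separated by counting error. The highest level was 1.30 times the lowest. Its log2 difference with stiffness was −0.15 (SE 0.155, adjusted p = 0.595, edgeR's quasi-likelihood test). Pdgfb was 1.23-fold lower (1.18 to 1.27) in stiff than in soft, and with A83-01 in both the interval held equality.

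Pdgfd, a ligand of PDGFR-beta, stood at 16.2 CPM in stiff with A83-01 and 20.8 CPM in stiff, against 24.5 CPM in soft with A83-01 and 26.6 CPM in soft. Both stiff libraries lay below both soft ones. Its log2 difference was −0.47 (SE 0.154, adjusted p = 0.152, edgeR's quasi-likelihood test). Pdgfd was 1.28-fold lower (1.15 to 1.42) in stiff than in soft and 1.51-fold lower (1.36 to 1.68) with A83-01 in both.

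Pdgfc, a ligand of PDGFR-alpha, had between 117 and 175 counts per library and stood at 3.79 CPM in stiff with A83-01 and 6.02 CPM in stiff, against 4.00 CPM in soft with A83-01 and 3.50 CPM in soft. The stiff library alone was high. Its counts are the fewest of the family, and its fold in stiff against soft, 1.72 (1.36 to 2.20), carries the widest interval of the 7 genes. With A83-01 in both the interval held equality. The log2 difference in the additive model was 0.35 (SE 0.32, adjusted p = 0.538, edgeR's quasi-likelihood test). On the FPKM scale with a pseudocount of 0.1 its log2 ratio in stiff against soft was 0.39, against 0.77 from counts.

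The ligand genes also stood in different proportion on each matrix. Per transcript length, Pdgfb made up 61.4% of the summed ligand FPKM in stiff with A83-01 and 60.0% in stiff, against 70.5% in soft with A83-01 and 69.5% in soft. Pdgfa made up 33.3% in both stiff libraries, against 21.4% in soft with A83-01 and 23.9% in soft. Pdgfb was thus 1.84 and 1.80 times Pdgfa in stiff with and without A83-01, against 3.30 and 2.90 times in soft with and without A83-01. Pdgfc and Pdgfd together came to between 0.0549 and 0.0887 of Pdgfa and Pdgfb in the 4 libraries, with no common direction by matrix. These ratios are descriptions of 4 libraries without a test.

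The inhibitor left the family with 0 of 7 genes called by edgeR's quasi-likelihood test after Benjamini-Hochberg adjustment, which called 0.044% of all genes (0% higher and 6 genes lower). With total-count scaling the split over all genes was 565 higher and 270 lower. At an unadjusted p of at most 0.05 it gave 1 gene, Pdgfrl, while DESeq2's Wald test called 1 gene, also Pdgfrl, and limma-voom called 0. The Pdgfrl direction was lower in both pairs. By library pair, 1 of 7 genes was called in stiff with A83-01 against stiff, where 12.3% of all genes were, and 1 of 7 in soft with A83-01 against soft, where 4.61% were. It was Pdgfrl in both pairs, which share no library, and 2.68% of all genes were called in the same direction in both.

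Pdgfrl was 2.05-fold lower (1.90 to 2.21) in stiff with A83-01 than in stiff and 2.07-fold lower (1.82 to 2.35) in soft with A83-01 than in soft. With total-count scaling the first of these became −0.75 on the log2 scale, short of 2-fold, in place of −1.04. Its log2 difference for A83-01 in the additive model was −1.04 (SE 0.138, adjusted p = 0.108, edgeR's quasi-likelihood test), with adjusted p between 0.0025 and 0.998 over the 6 alternatives. Both ratios lay close to each other, and their difference was 0.0073 on the log2 scale (−0.20 to 0.22, counting interval).

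The other genes moved less with the inhibitor. Pdgfrb was 1.08-fold lower (1.07 to 1.10) on stiff matrix and 1.41-fold lower (1.39 to 1.43) on soft matrix with A83-01 than without. Pdgfa was 1.10-fold lower (1.02 to 1.18) on stiff and 1.51-fold lower (1.39 to 1.65) on soft, and Pdgfb 1.06-fold lower (1.02 to 1.10) on stiff and 1.29-fold lower (1.25 to 1.34) on soft. With total-count scaling Pdgfa, Pdgfb and Pdgfrb were higher on stiff matrix with A83-01 than without, so their direction there rests on the scaling. Pdgfd was 1.28-fold lower (1.14 to 1.44) on stiff, and its interval held equality on soft. With total-count scaling its log2 ratio on stiff became −0.076, in place of −0.36. Pdgfc was 1.59-fold lower (1.26 to 2.005) on stiff, and its interval held equality on soft. Pdgfra was 1.22-fold higher (1.18 to 1.26) on stiff and 1.13-fold lower (1.12 to 1.15) on soft. The inhibitor responses on stiff and on soft matrix differed by 2-fold or more in 0 of 7 genes, against 9.46% of all genes, and the differences ran from −0.85 (−1.33 to −0.37) for Pdgfc to 0.47 (0.41 to 0.52) for Pdgfra on the log2 scale.

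Some genes ran close to the family over the 4 libraries. Likeness was measured as the Euclidean distance between centred log2 CPM values among 8107 genes (8108 for Pdgfc), and with 4 values many genes lie near each other. The nearest gene to Pdgfa was Pdgfrb, at a distance of 0.0847, followed by Adamts12 (0.0904) and Dyrk2 (0.0958). For Pdgfrb the nearest were Ing1 (0.0592), Dyrk2 (0.0844) and Pdgfa. Within a distance of 0.25 there were 39 genes for Pdgfa and 94 for Pdgfrb. Pdgfra had 3 genes within that distance, namely Fam20a (0.104), Ptgs1 (0.204) and Sdc4 (0.218). Pdgfb had 561 such genes, with Cdc40 (0.0179), Slc2a3 (0.0414) and Wdr37 (0.0419) nearest. Pdgfc was nearest to Trabd2b (0.0605), ST7 (0.0965) and Dap (0.0993), with 102 genes within 0.25. Pdgfd was nearest to LOC100363472 (0.041), Gnl3 (0.0446) and S1pr2 (0.0512), with 214.

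Markers of the cells that carry these genes were read beside them. All 12 fibroblast markers were kept, of which Mfap5 rose and Dcn fell with stiffness by edgeR's quasi-likelihood test. The median of this list was 0.42, against 0.011 over all genes. Dcn, a small proteoglycan, was the 1 marker of that list with a lower stiffness difference than Pdgfra, at −2.53 (SE 0.404). Thy1, a surface marker of fibroblasts, had a difference of 0.60 (SE 0.223) and did not pass. The summed level of the list was 44430 CPM in stiff with A83-01 and 127158 CPM in stiff, against 49605 CPM in soft with A83-01 and 69590 CPM in soft, nearly all of it Col1a1, Col3a1 and Dcn. Of 11 pericyte and mural markers kept, 3 rose (Rgs5, Des and Heyl) and 1 fell (Ndufa4l2), and the median was 0.77 against 0.011 over all genes. Their summed level was 4575 CPM in stiff with A83-01 and 3200.3 CPM in stiff, against 4976 CPM in soft with A83-01 and 3013 CPM in soft, with Anpep giving 27.1% to 70.5% of it. Of 8 smooth muscle and myofibroblast markers 7 rose, each by more than Pdgfrl, and the list's median was 4.43. Their summed level was 4918 CPM in stiff with A83-01 and 7711 CPM in stiff, against 326 CPM in soft with A83-01 and 619 CPM in soft. Of 6 adipocyte markers kept 0 rose and 2 fell, while 0 of 6 Schwann cell markers passed (1 at an unadjusted p of at most 0.05). The part of any of these in the levels of Pdgfra, Pdgfrb and Pdgfrl was not tested.

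**Figure D4:**
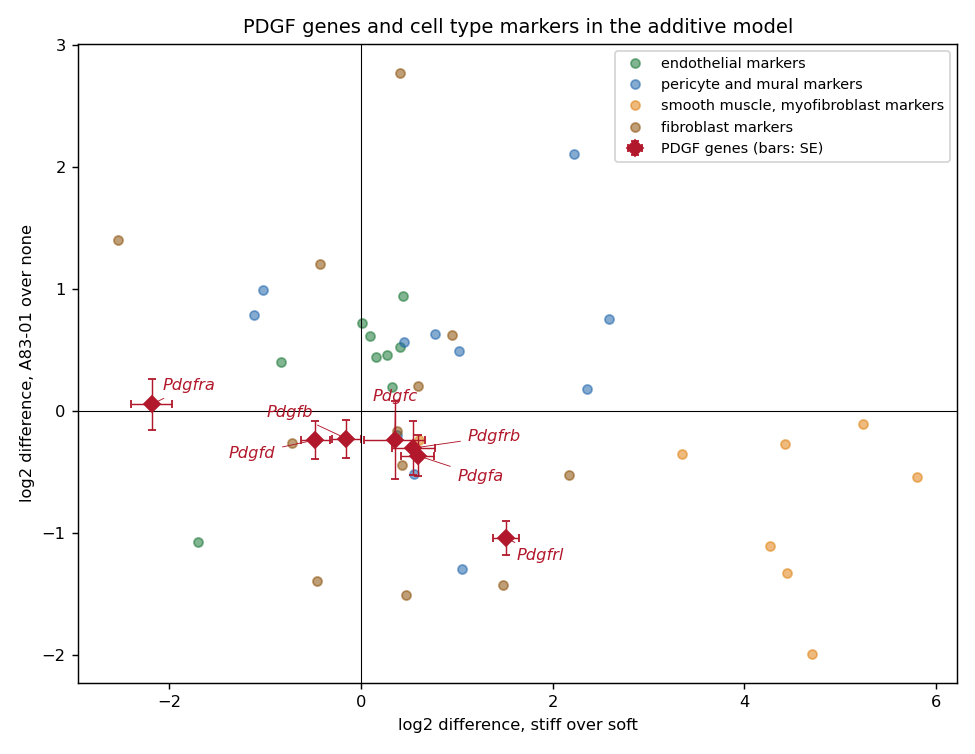
Log2 differences of stiff over soft (horizontal) and A83-01 over none (vertical) in the additive model, for the 7 PDGF genes (red diamonds, bars are SE) and for markers of 4 cell types (circles). Pdgfra lies at −2.18 and 0.053 and Pdgfrl at 1.51 and −1.04, while the other PDGF genes run from −0.47 to 0.59 for stiffness and from −0.37 to −0.23 for A83-01; with total-count scaling Pdgfra lies at −2.28 and 0.20 and Pdgfrl at 1.41 and −0.89.

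Endothelial markers bear on Pdgfb. Of 12 markers 10 were in the table and 9 were kept, with Vwf falling with stiffness. VE-cadherin, Cdh5, stood at 1325 CPM in stiff with A83-01 and 729.6 CPM in stiff, against 886 CPM in soft with A83-01 and 869.6 CPM in soft. Endothelial transcripts were thus present in every library. Cldn5 had 0 counts in each library except soft with A83-01, and Pecam1 and Robo4 were not analysed here. The summed level of the list was 2493 CPM in stiff with A83-01 and 1420.4 CPM in stiff, against 1814 CPM in soft with A83-01 and 1779 CPM in soft. Per 100 counts of these markers there were 6.58 counts of Pdgfb in stiff with A83-01 and 12.2 in stiff, and 9.08 in soft with A83-01 and 11.97 in soft. The ratio of Pdgfb to endothelial markers, a scale chosen after the values were seen, was thus lower with A83-01 on both matrices. On stiff matrix it was mainly the marker sum that differed, as Pdgfb stood at 164 CPM with A83-01 and 174 CPM without. Cdh5 alone made up 48.8% to 53.2% of the marker counts.

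Platelets and macrophages can also carry PDGF-B. The platelet markers Ppbp and Tubb1 had 0 counts in all libraries. The 6 platelet markers summed to 70.5 CPM in stiff with A83-01 and 144 CPM in stiff, against 70.4 CPM in soft with A83-01 and 104 CPM in soft. Most of this sum was Gp1bb, which gave 66.1 CPM in stiff with A83-01 and 140.2 CPM in stiff. In soft with A83-01 it gave 59.1 CPM and in soft 88.7 CPM. Pf4, a platelet chemokine gene, was the 1 marker of that list called for stiffness and fell by 1.87 in log2 units (SE 0.295, adjusted p = 0.0383, edgeR's quasi-likelihood test). It stood at 3.56 CPM in stiff with A83-01 and 2.72 CPM in stiff, against 9.58 CPM in soft with A83-01 and 13.7 CPM in soft.

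Leukocyte and macrophage markers fell with stiffness in part. Of 7 kept, 1 rose and 2 fell by edgeR's quasi-likelihood test, 7 had an unadjusted p of at most 0.05, and the median was −0.86 against 0.011 over all genes. Adgre1, the gene of the macrophage antigen F4/80, fell by 4.64 (SE 0.445), with 2.38 CPM in stiff with A83-01 and 0.447 CPM in stiff, against 37.4 CPM in soft with A83-01 and 24.5 CPM in soft. Cd74, the invariant chain of MHC class II, also fell, with 13 counts in stiff with A83-01 and 0 in stiff, against 361 in soft with A83-01 and 192 in soft. The lysozyme gene Lyz2 rose by 3.28 (SE 0.38), with 6.09 CPM in stiff with A83-01 and 23.5 CPM in stiff, against 1.01 CPM in soft with A83-01 and 1.58 CPM in soft. The summed level of the list was 68.6 CPM in stiff with A83-01 and 69.3 CPM in stiff, against 145 CPM in soft with A83-01 and 101 CPM in soft, and Cd68 was its most abundant gene in every library. Of the called markers, Adgre1 and Cd74 were thus lower on stiff matrix and Lyz2 was higher. The part of platelet and leukocyte markers in the levels of Pdgfb and Pdgfra was not tested.

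Genes that act on the ligands came next. For this and the following lists, the share of all genes called for stiffness was 5.64%. No list was tested against that share. Of 14 genes kept for ligand processing, binding and retention, 2 rose with stiffness and 0 fell by edgeR's quasi-likelihood test, and the median difference was 0.21 against 0.011 over all genes. Pcsk6, a proprotein convertase, rose by 2.96 (SE 0.26), with 9.54 CPM in stiff with A83-01 and 12.5 CPM in stiff, against 1.01 CPM in soft with A83-01 and 1.88 CPM in soft. Plau, the gene of urokinase, which can activate PDGF-D, rose by 1.56 (SE 0.258). It stood at 59.8 CPM in stiff with A83-01 and 47.6 CPM in stiff, against 14.7 CPM in soft with A83-01 and 22.3 CPM in soft. Plat, the gene of tissue plasminogen activator, which activates PDGF-C, did not pass, with 94.9 CPM in stiff with A83-01, 335 CPM in stiff, 136 CPM in soft with A83-01 and 197 CPM in soft. On each matrix it was lower with A83-01 than without. The convertase gene Pcsk5 (−1.07), the matrix protein gene Thbs1 (−0.47) and the protease gene St14 (0.44) did not pass for stiffness either. A2m, whose protein binds PDGF, had 0 counts in stiff with A83-01, 82 in stiff, 4 in soft with A83-01 and 45 in soft.

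Genes of signal transmission below the receptors showed no calls in the additive model, where 5.64% of all genes were called for stiffness. Of 24 kept adaptor and proximal effector genes 0 were called for stiffness by edgeR's quasi-likelihood test, and their median difference was −0.077. Of 14 genes of the RAS-ERK and AKT cascade 0 were called, with a median of 0.070. In each of these lists 5 genes had an unadjusted p of at most 0.05, without an all-gene share to compare. DESeq2 and limma-voom called 0. The range of the adaptor genes ran from −0.96 for the exchange factor gene Vav3 to 0.69 for the adaptor gene Nck2. In the cascade the highest difference was 0.48, for the kinase gene Akt1. Sos2, an exchange factor of RAS, was 2.42-fold lower (2.17 to 2.71) in stiff than in soft and 1.16-fold lower (1.07 to 1.26) with A83-01 in both. For A83-01 the extremes were Shc1 (−0.29), Vav3 (0.87), Map2k1 (−0.39) and Mapk3 (0.37), and none passed. Grb2 had at most 13 counts in any library and was below the expression minimum.

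Genes that attenuate receptor signalling moved in both directions. Of 20 kept, 1 rose and 3 fell with stiffness by edgeR's quasi-likelihood test, and the median was −0.15. Lrp1, an endocytic receptor that binds PDGFR-beta, fell by 1.61 (SE 0.261), with 1787 CPM in stiff with A83-01 and 1903 CPM in stiff, against 5627 CPM in soft with A83-01 and 5617 CPM in soft. Cblb, a ubiquitin ligase of receptor tyrosine kinases, fell by 1.01 (SE 0.143), and Slc9a3r1, a scaffold that binds the tail of PDGFR-beta, fell by 1.08 (SE 0.157). Rgs5, a regulator of G-protein signalling found in pericytes, rose by 2.59 (SE 0.346). Spry1, an inhibitor of RAS-ERK signalling, did not pass at 1.19 (SE 0.31), and Errfi1, an inhibitor of EGF receptors, had the highest A83-01 difference of the list at 0.81 without passing.

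Among 21 kept genes of the early response to growth factors, 1 rose and 4 fell with stiffness by edgeR's quasi-likelihood test, with a median of −0.27. The chemokine genes Ccl2 and Ccl7, known as early targets of PDGF in mouse fibroblasts, fell by 3.03 (SE 0.202) and by 2.91 (SE 0.164). The AP-1 subunit gene Fosl1 fell by 2.66 (SE 0.212), and the ERK phosphatase gene Dusp4 fell by 1.19 (SE 0.192). Dusp1, another phosphatase of MAP kinases, rose by 0.93 (SE 0.133). The transcription factor gene Etv1 (−1.24) did not pass for stiffness, nor did the hyaluronan synthase gene Has2 for A83-01 (−1.37). Many inputs other than PDGF drive these genes.

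Of 13 kept genes of related growth factor and receptor families, 0 rose and 2 fell with stiffness by edgeR's quasi-likelihood test, with a median of −0.44. Vegfd, a growth factor of lymphatic vessels, fell by 1.90 (SE 0.186), and Kitlg, the ligand of KIT, fell by 1.40 (SE 0.216). Vegfa, the main vascular growth factor gene, did not pass, with 50.4 CPM in stiff with A83-01 and 159 CPM in stiff, against 282 CPM in soft with A83-01 and 336 CPM in soft. The receptor genes Kit (0.57) and Csf1r (−0.83), relatives of the PDGF receptors, did not pass, nor did the placental growth factor gene Pgf (0.21). For A83-01, 0 genes of all 6 pathway lists were called by edgeR's quasi-likelihood test, DESeq2 called 5 and limma-voom called 0. By edgeR 18 of 106 had an unadjusted p of at most 0.05, again without an all-gene share to compare.

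**Figure D5:**
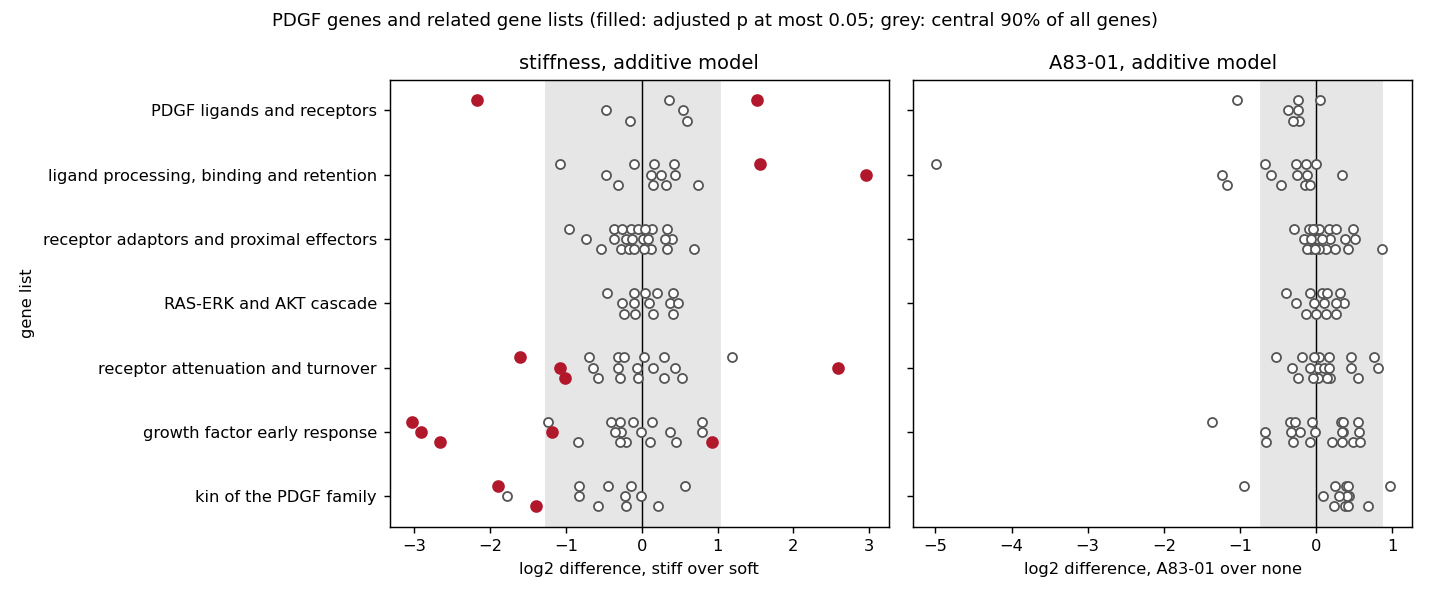
Log2 differences in the additive model for stiff over soft (left) and A83-01 over none (right), 1 circle per gene, for the PDGF genes and 6 related lists. Filled circles have an adjusted p of at most 0.05, and the grey band holds the central 90% of all genes, from −1.26 to 1.03 for stiffness and from −0.72 to 0.86 for A83-01; the leftmost circle on the right is A2m, which had 0 counts in stiff with A83-01, so its fitted value depends on the prior count.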

How the data were processed

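Messenger RNA was captured on oligo(dT) beads, primed with random hexamers and sequenced from both ends (DNBSEQ-T7), per the labels' protocols. No molecular identifier or strand-marking step is mentioned there, so PCR copies may be counted and overlapping genes on opposite strands may share reads. The deposited count table holds whole-number reads per gene and library, not normalised, as the authors made it. The FPKM values were also made by the authors, who divided by a length and library total, judging by the ratio of counts to FPKM. The length so implied was not the same in each library. For Pdgfc it was 2.19 kb in soft and 2.57 kb in soft with A83-01. Per the submitters' processing notes, the tools were HISAT2 and edgeR and the build Rnor_6.0. Counter, annotation and versions: not given in the sources used here.

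From the counts, factors of the trimmed mean of M-values (TMM) were computed over all 4 libraries, and the 13634 genes of at least 1 CPM in at least 1 library were kept. All 7 members were kept. Library pairs were compared by the log2 ratio of CPM with a prior count of 2 and a 95% conditional binomial (Clopper-Pearson) interval. Stiffness and inhibitor were fitted as additive terms over the 4 libraries, which leaves 1 residual degree of freedom. Each term was tested with edgeR's quasi-likelihood test, and p-values were adjusted over all genes kept (Benjamini-Hochberg, 0.05). SEs are the size of the log2 difference over the square root of the F statistic. R 4.3.3, edgeR 4.0.16, limma 3.58.1 and DESeq2 1.42.0 were used, and the model and the intervals were tested on simulated data.

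The members and gene lists were chosen with earlier results of these data known. All members are named. For each ligand, Pdgfra and Pdgfrb, the 3 genes of smallest Euclidean distance over the 4 centred log2 CPM values are named, among genes of at least 10 CPM on average with a symbol in the reference gene table. From each pathway list the rule names the extremes of both factors, every called gene and up to 6 genes called in a pair with the same direction in both pairs of that factor. A gene that this rule names is not reported here. Alternatives were other scalings, prior counts and filters, the FPKM values with pseudocounts of 0.1 and 1, DESeq2, limma-voom and models of 1 factor. Windows around the RefSeq start of 5 members come from GRCr8, a build other than the submitters'.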

Additional observations from a re-analysis of the deposited data

Results flagged for a closer look

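Pdgfra moved in opposite directions with the inhibitor on the 2 matrices, each beyond counting error. Its log2 ratio was 0.29 in stiff with A83-01 against stiff and −0.18 in soft with A83-01 against soft. With total-count scaling these became 0.57 and −0.17, so the size on stiff matrix rests on the scaling. With 1 library per group, the difference between both responses was not tested.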

How the results depend on the processing

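Depth was similar in all libraries, and counting error limited mainly Pdgfc. Stiffness calls of 2 of 7 genes held with DESeq2, limma-voom, DESeq2 size factors, total counts and no filter, and became 0 with stiffness alone in the model. For A83-01, 0 of 7 became 1 (Pdgfrl) with DESeq2 and 1 with total counts, and the log2 difference of Pdgfra, 0.053, became −0.095 with A83-01 alone in the model. Over all genes, stiffness calls were 320 up and 449 down, against 574 and 737 with DESeq2, 623 and 1135 with total counts and 13 and 17 with stiffness alone. A83-01 calls were 0 up and 6 down, against 219 and 244 with DESeq2, 565 and 270 with total counts, 10 and 17 without the filter, 0 and 3 with limma-voom, and 0 with DESeq2 size factors or A83-01 alone.

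The count of 1 gene 2-fold apart with A83-01 on stiff matrix became 0 with total counts and 0 with FPKM at either pseudocount, and that on soft matrix became 0 with FPKM and a pseudocount of 1. With total counts, the log2 ratios of Pdgfa, Pdgfb and Pdgfrb on stiff matrix became 0.15, 0.20 and 0.17, and that of Pdgfd −0.076. Without length correction, log2 Pdgfra to Pdgfrb was −2.61 and −3.01 in stiff with and without A83-01, and 0.080 (reversed from −0.35) and −0.23 in soft with and without it. Log2 Pdgfb to Pdgfa was then 1.85 and 1.79 in stiff with and without A83-01, and 2.68 and 2.45 in soft with and without it. Log2 of Pdgfc plus Pdgfd to Pdgfa plus Pdgfb was −3.39, −3.06, −2.74 and −3.07 in that order. The shift reflects the length implied by the FPKM values, which differed somewhat between libraries. No paired analysis was possible because each group holds 1 library. Leaving out a library leaves no residual degree of freedom in the additive model.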
